A study of Mus musculus with 6 samples.

Results

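DNA replication genes were examined in kidneys of mouse embryos at E13.5, a stage of active branching and nephron formation, read on 6 Affymetrix MOE430.2 arrays of biotin-labelled cRNA. The genes were taken by name from a list of 40, and 39 of them had a probe set annotated to that gene alone, out of 18193 genes measured in this way. The listed gene without such a probe set here was Chaf1a. A gene with several probe sets was represented by the one with the highest mean over the 6 arrays.

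The 3 arrays M1, M2 and M3 held double-null kidneys (Fz4-/-Fz8-/-), which lack both Frizzled receptors Fz4 and Fz8. The 3 arrays C1, C2 and C3 held Fz8-null kidneys (Fz4+/+Fz8-/-), which keep Fz4. Loss of Fz8 was thus shared by every array, and no kidney with both receptors was analysed. By the labels the groups differ in the loss of Fz4 on an Fz8-null background. Any other difference between the groups cannot be told apart from that loss in these arrays. C57BL/6, 129X1/SvJ and 129S1/Sv all contributed to the hybrid background of both groups. The labels call the arrays biological replicates and do not say how many embryos went into one, so a p-value refers to these samples. The p-values and SEs of limma weigh a gene's own spread between the samples together with a spread shared by all genes. The comparison asked what the loss of the second receptor changes in a growing kidney.

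A cell copies its genome once per division. In the first growth phase the origin recognition complex, Cdc6 and Cdt1 load the Mcm2 to Mcm7 helicase onto origins. At the start of S phase, cyclin E and E2F activity rise, Cdc45 and the GINS complex turn the helicase on, and polymerases with a sliding clamp copy both strands. E2F factors drive transcription of many of these genes through short GC-rich sites, so their transcripts are often read as a sign of how much of a tissue is cycling. In the embryonic kidney the cells of the ureteric tip and the nephron progenitors around it are known as dividing populations. Whole kidneys were profiled, so fewer cells of a type and less RNA per cell cannot be told apart in any of these values.

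The promoters are shown first because their sequence was not used in choosing the list. RefSeq promoter windows (GRCm38.p6), reaching from 250 bases before a gene's start to 50 bases after it, were found for 33 of the 40 genes. An E2F-type run, here TTTCCCGC, TTTGGCGC or TTTCGCGC on either strand, stood in the window of 12 of these 33 genes (36.4%), against 573 of 27025 genes with a window (2.1%). A gene was counted once however many runs its windows held, and the CCAAT box was searched apart from the E2F-type runs. A CCAAT box, the 5 letters CCAAT on either strand, stood in 20 of the 33 (60.6%), against 11096 of all 27025 genes (41.1%). The E2F-type run was as frequent in related lists, at 15 of 43 other replication genes (34.9%) and 7 of 19 regulators of the step into S phase (36.8%). Mitosis genes had an E2F-type run in 1 of 26 (3.8%) and a CCAAT box in 20 of 26 (76.9%). The windows of the 4 genes that hold an E2F-type run and had the smallest p in the comparison below follow, 5′ to 3′ along the gene, with the run in capitals. A match is a run of letters and not a shown binding site.
Pola1, chrX:93632106-93632405, minus strand: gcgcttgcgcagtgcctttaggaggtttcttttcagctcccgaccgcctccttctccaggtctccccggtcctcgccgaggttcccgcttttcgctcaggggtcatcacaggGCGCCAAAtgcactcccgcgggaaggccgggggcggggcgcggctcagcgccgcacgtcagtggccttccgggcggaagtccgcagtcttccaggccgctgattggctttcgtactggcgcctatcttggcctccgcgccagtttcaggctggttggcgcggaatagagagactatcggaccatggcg
Cdc6, chr11:98907901-98908200, plus strand: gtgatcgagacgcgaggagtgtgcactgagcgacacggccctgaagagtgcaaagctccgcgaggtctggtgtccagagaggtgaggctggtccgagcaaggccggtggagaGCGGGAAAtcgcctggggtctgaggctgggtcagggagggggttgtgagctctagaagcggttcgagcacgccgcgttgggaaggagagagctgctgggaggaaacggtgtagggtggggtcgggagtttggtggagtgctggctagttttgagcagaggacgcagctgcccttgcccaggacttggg
Lig1, chr7:13278576-13278875, plus strand, 1 of 3 windows of the gene: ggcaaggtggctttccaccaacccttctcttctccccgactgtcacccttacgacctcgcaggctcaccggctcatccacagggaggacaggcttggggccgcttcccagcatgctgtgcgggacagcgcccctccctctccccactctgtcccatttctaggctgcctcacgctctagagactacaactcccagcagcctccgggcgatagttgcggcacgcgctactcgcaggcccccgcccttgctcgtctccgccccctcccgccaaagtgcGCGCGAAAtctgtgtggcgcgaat
Gins3, chr8:95633309-95633608, plus strand: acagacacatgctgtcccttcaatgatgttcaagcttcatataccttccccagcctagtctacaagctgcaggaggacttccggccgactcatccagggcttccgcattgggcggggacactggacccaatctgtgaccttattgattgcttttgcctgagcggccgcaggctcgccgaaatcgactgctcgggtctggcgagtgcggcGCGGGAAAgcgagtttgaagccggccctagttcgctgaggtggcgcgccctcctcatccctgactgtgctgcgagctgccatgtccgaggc
Counted from the gene's start, the run began at position -138 in Pola1 and likewise at -138 in Cdc6. It began at position -41 in Gins3 and at position 27, inside the transcribed part, in Lig1. In each of these 4 windows the run was on the strand opposite to the gene.

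Fzd4, the gene of Fz4, read 5.29, 4.96 and 3.89 in M1, M2 and M3, against 10.74, 10.86 and 10.93 in C1, C2 and C3, as the labels state (difference -6.13, SE 0.35, limma adjusted p = 0.00318). Values here and below are the authors' RMA values on the log2 scale, so that a difference of 1 is a 2-fold change. Array medians lay between 6.02 and 6.14. Of the listed markers of nephron progenitors, 13 of 14 measured had a mean of at least 6. Liver and blood cell transcripts had high values in M2 and M3. After adjustment 0 of these genes passed, but 11 of 11 liver genes had an unadjusted limma p under 0.05, against 15.3% of all genes. For 7 of the liver genes (63.6%) all 3 double-null arrays lay above all 3 Fz8-null arrays, against 6.68% of all genes. Median differences were 2.61 for liver, 1.34 for erythroid and 0.29 for macrophage and leukocyte genes. M1, M2 and M3 had a mean level over 11 measured liver genes of 6.23, 8.71 and 9.01, against 5.20 to 5.85 over the Fz8-null arrays. The mean level of 11 erythroid genes was 6.09, 8.42 and 8.58 in M1, M2 and M3, against 6.45 to 6.66 over the Fz8-null arrays. Over 12 macrophage and leukocyte genes the mean level was 6.38, 7.37 and 7.45 in M1, M2 and M3, against 6.52 to 6.81 over the Fz8-null arrays. Median differences of the other marker lists were 0.41 for neuron and crest, 0.036 for stroma, -0.34 for endothelium and -0.61 for skeletal muscle, and 0 genes of these lists passed. Fetal liver makes red cells and divides rapidly, and the part of these transcripts in the values below was not tested.

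No replication gene passed the test between double-null and Fz8-null kidneys. By limma with Benjamini-Hochberg adjustment over 18193 genes, 0 of 39 had an adjusted p under 0.05, where 5 of all genes (0.0275%) did. At an unadjusted p under 0.05 limma also gave 0 of 39, against 15.3% of all genes. Ordinary least squares, which uses only a gene's own spread, gave 0 of 39 after adjustment, against 0.0055% of all genes. Its unadjusted p-values were not counted, so the count of 0 before adjustment holds for limma alone. The smallest adjusted p was 0.343, for Pola1. The differences (double-null minus Fz8-null) ran from -0.43 for Cdc6 to 0.34 for Rfc4, which are 1.35-fold and 1.27-fold in linear terms, and 27 of the 39 lay within 0.2 of zero. The 95% intervals of limma, each for 1 gene and unadjusted, lay inside a 2-fold change in either direction for 39 of 39 genes and inside a 1.5-fold change for 26. Of all 18193 genes 14186 and 7399 did so, and of 5265 other genes near them in mean level 4794 and 2821. The intervals are those of the brightest probe set. Over all 88 probe sets of these genes the differences ran from -0.90 to 0.89, and no intervals are given for the further ones. Changes smaller than these limits are not excluded with 3 arrays a group. The result rests in part on M3: without it Cdc6 (-0.64, adjusted p = 0.0350) and Pola2 (-0.61, adjusted p = 0.0417) passed, while 18.1% of all genes passed too. Over all alternatives the adjusted p ran from 0.0141 to 0.979 for Cdc6 and from 0.00533 to 0.972 for Pola2. With array weights, which gave M1 a weight of 3.93 and M3 one of 0.211, 12 of 39 passed beside 41.6% of all genes.

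**Figure D1:**
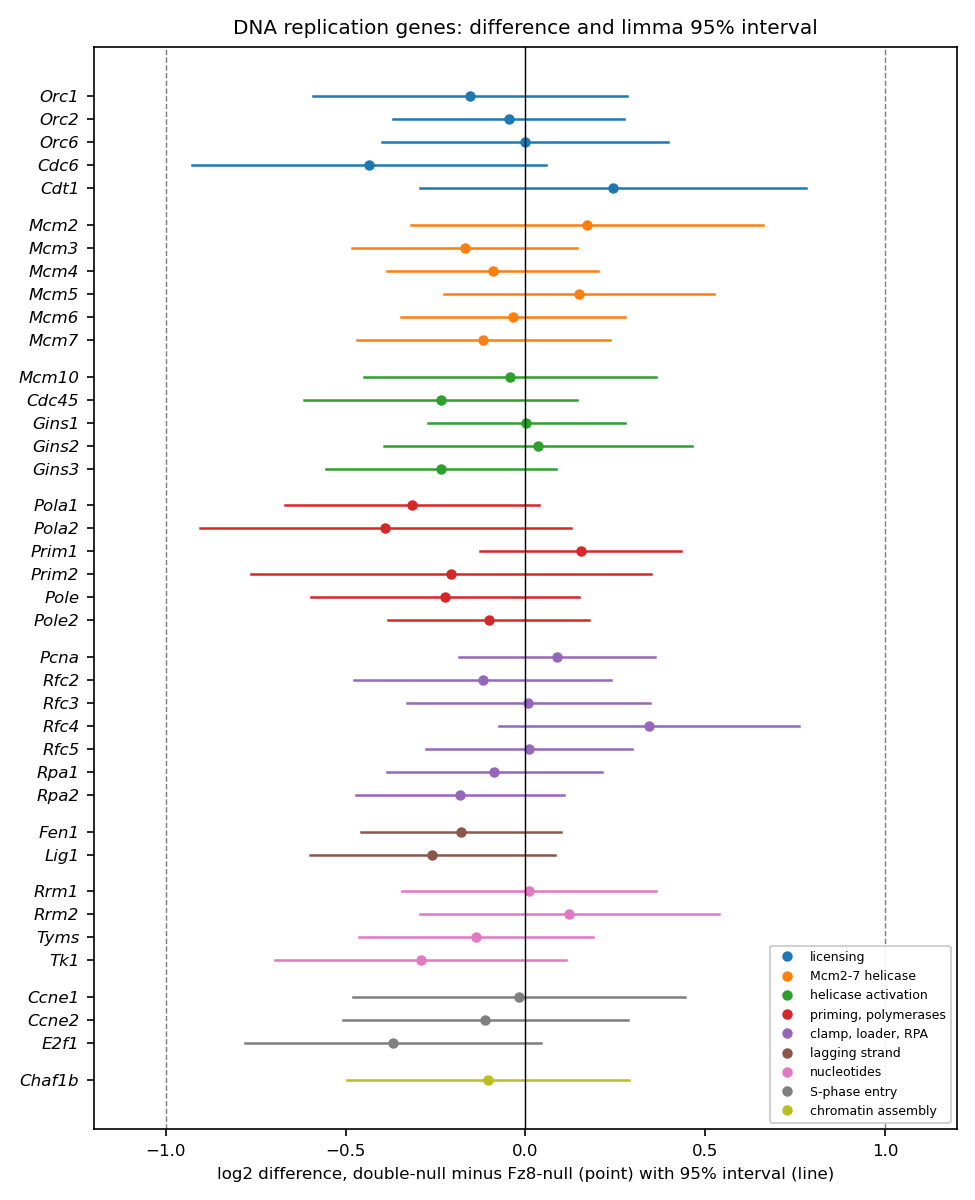
Each point is the log2 difference of a replication gene (double-null minus Fz8-null, x axis) and each line its 95% limma interval, with genes ordered by role down the page. Every interval spans 0, and every interval lies between the dashed lines at -1 and 1, which mark a 2-fold change.

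Replication genes were next set beside all genes by how often the groups did not overlap. All 3 double-null arrays lay below all 3 Fz8-null arrays for 5 of 39 (12.8%), against 12.2% of all genes. These were Pola1, Lig1, Gins3, Fen1 and Rpa2. All 3 double-null arrays lay above for 2 (5.13%), Prim1 and Pcna, against 6.68% of all genes. Both shares were near that background. With quantile normalization 1 of 39 lay lower, against 11.4% of all genes. Without M3 17 lay lower and 4 higher, against 34.1% and 19.2% of all genes. Without C1 10 lay lower and 7 higher, against 23.2% and 16.2% of all genes, and without C2 8 lay lower, against 14.3%. The median difference was -0.10 over the replication genes and -0.061 over all genes, and with quantile normalization these were 0.0074 and -0.047. Genes with a mean near theirs lay lower as a whole: over the 5265 other genes that were among the 200 nearest in mean level to a replication gene, the median was -0.11, and 16.9% lay below and 3.15% above without overlap. Taken gene by gene, the median of a replication gene minus that of its 200 neighbours in level was 0.037. The absolute difference had a median of 0.14 in replication genes and 0.17 in genes of similar level, and the pooled SD within a group had a median of 0.16 and 0.18.

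**Figure D2:**
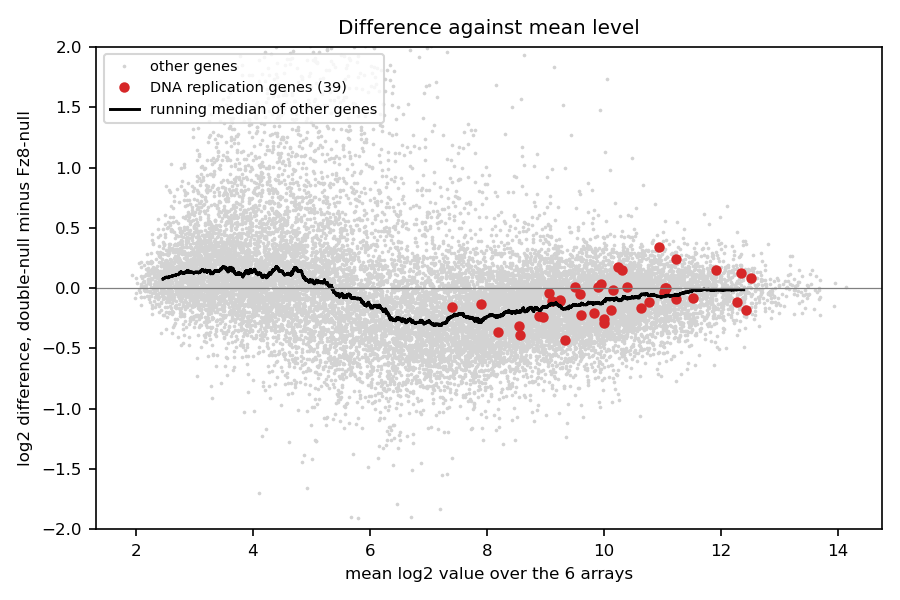
Each grey dot is a gene, placed by its mean log2 value over the 6 arrays (x axis) and its log2 difference, double-null minus Fz8-null (y axis, cropped at -2 and 2, which leaves out 108 genes). The 39 replication genes (red) lie on both sides of the running median of the other genes over 400 neighbours (black), which is below 0 at the means where most of them sit.

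Origin licensing genes held the lowest difference of the list, and 0 of 5 passed. Cdc6, an ATPase that loads the helicase, read 9.08, 8.73 and 9.52 in M1, M2 and M3, against 9.60, 9.48 and 9.55 in C1, C2 and C3. M1 and M2 were low, and M3 lay among the Fz8-null arrays, so the groups overlapped. The difference was -0.43 (SE 0.21, limma adjusted p = 0.347), and without M1 and M2 together it was -0.028. Cdt1, its loading partner, averaged 11.35 ± 0.13 in double-null and 11.11 ± 0.43 in Fz8-null kidneys (SD, n = 3 each). Its Fz8-null values were 11.60 in C1 but 10.86 and 10.85 in C2 and C3, and without C1 the difference of 0.24 became 0.49 (limma adjusted p = 0.276, where the range over alternatives was 0.0327 to 0.886). Orc6, a subunit of the origin recognition complex, had the smallest difference of the list in either direction, though its arrays varied. It read 10.93, 11.23 and 11.01 in M1, M2 and M3, against 10.79, 11.23 and 11.15 in C1, C2 and C3. Its difference was -0.0012 (SE 0.17, limma adjusted p = 0.997). Orc1, the largest subunit of that complex, stood at -0.15 and Orc2 at -0.047.

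On their brightest probe sets the 6 helicase genes gave differences between -0.17 and 0.17, with 4 below and 2 above 0. On the second probe set the sign was the other for Mcm2 (-0.066), Mcm5 (-0.24), Mcm4 (0.10) and Mcm6 (0.19). It was the same for Mcm3 (-0.27) and Mcm7 (-0.17). Mcm3 averaged 10.55 ± 0.13 in double-null and 10.71 ± 0.09 in Fz8-null kidneys (SD, n = 3 each). Mcm7 averaged 12.22 ± 0.21 and 12.34 ± 0.08, Mcm4 11.19 ± 0.10 and 11.28 ± 0.07, and Mcm6 11.01 ± 0.13 and 11.04 ± 0.08 in double-null and Fz8-null kidneys (SD, n = 3 each). On these brightest sets the groups overlapped for each of these 4 genes. A further set of Mcm3 lay lower without overlap, and a further set of Mcm6 lay higher. Mcm2 averaged 10.32 ± 0.13 in double-null and 10.15 ± 0.37 in Fz8-null kidneys, and Mcm5 10.39 ± 0.11 and 10.24 ± 0.23. The wide Fz8-null spread of both came from C1, where Mcm2 read 10.58, against 9.92 in C2 and 9.94 in C3.

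Among the genes that switch the helicase on, Gins3 separated the groups by a narrow margin. Gins3, a subunit of the GINS complex, read 8.86, 8.81 and 8.62 in M1, M2 and M3, against 8.87, 9.06 and 9.08 in C1, C2 and C3. The highest double-null array lay 0.0072 below the lowest Fz8-null array, and the difference was -0.24 (SE 0.13, limma adjusted p = 0.401). Cdc45, which joins GINS on the helicase, read 8.65, 8.78 and 9.09 in double-null kidneys, against 8.93, 9.18 and 9.12 in Fz8-null kidneys. M3 again lay inside the Fz8-null range, and the difference was -0.24 (SE 0.16, limma adjusted p = 0.463). Gins1 gave 10.98, 11.09 and 11.08 in M1, M2 and M3, against 11.05, 11.04 and 11.06 in C1, C2 and C3, a difference of 0.0025 (SE 0.12). Gins2 stood at 0.035 and Mcm10, which stabilises the new fork, at -0.043.

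Of the priming and polymerase genes 5 of 6 lay below 0, beside 3640 of 5265 genes of similar level and 10576 of all 18193 genes. The median difference of the 6 genes was -0.22, and 0 of 6 passed. Pola1, the catalytic subunit of polymerase alpha, read 8.48, 8.14 and 8.53 in M1, M2 and M3, against 8.66, 8.66 and 8.78 in C1, C2 and C3. All 3 double-null arrays were lower, with a gap of 0.13 between the groups, and the difference was -0.32 (SE 0.15, limma adjusted p = 0.343). Pola2, its accessory subunit, read 8.07, 8.22 and 8.80 in double-null kidneys, against 8.60, 8.95 and 8.70 in Fz8-null kidneys. M1 and M2 were low and M3 was above the Fz8-null mean, so the difference was -0.39 (SE 0.22, limma adjusted p = 0.392) with overlap. Pole, the catalytic subunit of the leading-strand polymerase, read 9.50, 9.26 and 9.73 in double-null kidneys, against 9.81, 9.70 and 9.64 in Fz8-null kidneys, at -0.22 (SE 0.16, limma adjusted p = 0.476). Its partner Pole2 stood at -0.10. Primase split: Prim1, the catalytic subunit, read 12.05, 12.04 and 11.91 in M1, M2 and M3, against 11.87, 11.84 and 11.82 in C1, C2 and C3. It was higher in all 3 double-null arrays, by 0.15 (SE 0.12, limma adjusted p = 0.508). Prim2, the large subunit, stood at -0.21 with an SE of 0.23, and its values ran from 9.36 in M3 to 10.20 in C3.

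The clamp and its loader varied around 0. Pcna, the sliding clamp, read 12.52, 12.55 and 12.59 in M1, M2 and M3, against 12.45, 12.52 and 12.43 in C1, C2 and C3. The groups did not overlap but the gap was 0.0037, and the difference was 0.087 (SE 0.11, limma adjusted p = 0.702). The pooled SD of Pcna within a group was 0.040, so its SE came mostly from the spread shared by all genes. Rfc4, a subunit of the clamp loader, read 11.18, 11.35 and 10.79 in double-null kidneys, against 10.86, 10.78 and 10.64 in Fz8-null kidneys. M1 and M2 were above every Fz8-null array and M3 was not, and the difference was 0.34 (SE 0.18, limma adjusted p = 0.361). The other subunits of the loader did not share this: Rfc2 stood at -0.12, Rfc5 at 0.011 and Rfc3 at 0.0082. Rfc3 read 9.86, 9.93 and 9.93 in double-null kidneys, against 9.68, 10.03 and 9.99998 in Fz8-null kidneys. Rpa2, a subunit of the complex that coats single-stranded DNA, read 9.9998, 10.02 and 10.06 in double-null kidneys, against 10.09, 10.28 and 10.26 in Fz8-null kidneys. It was lower in all 3 double-null arrays, by a gap of 0.023 and a difference of -0.18 (SE 0.12, limma adjusted p = 0.458), while Rpa1 stood at -0.086.

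Both genes that finish the lagging strand were lower in all 3 double-null arrays, and neither passed. That state was found in 12.2% of all genes and 16.9% of genes of similar level. Fen1, the nuclease that trims the flaps between fragments, read 12.36, 12.26 and 12.40 in M1, M2 and M3, against 12.52, 12.56 and 12.48 in C1, C2 and C3. The difference was -0.18 (SE 0.12, limma adjusted p = 0.449). On the second probe set of Fen1 the groups overlapped, at a difference of -0.30. Lig1, the ligase that joins the fragments, read 9.74, 9.77 and 10.11 in double-null kidneys, against 10.14, 10.14 and 10.11 in Fz8-null kidneys. M3 lay 0.0058 below the lowest Fz8-null array and M1 and M2 well below it, and the difference was -0.26 (SE 0.14, limma adjusted p = 0.389).

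Genes of nucleotide supply showed 2 values above and 2 below 0. Tk1, the thymidine kinase of the salvage route, read 9.77, 9.76 and 10.06 in double-null kidneys, against 9.88, 10.32 and 10.25 in Fz8-null kidneys, at -0.29 (SE 0.17, limma adjusted p = 0.408). M3 and C1 crossed over, so the groups overlapped. Rrm1, the large subunit of ribonucleotide reductase, read 10.50, 10.13 and 10.54 in double-null kidneys, against 10.40, 10.39 and 10.36 in Fz8-null kidneys, at 0.0093 (SE 0.15). Rrm2, its small subunit, stood at 0.12 and Tyms, which makes thymidylate, at -0.14.

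Of the regulators of S-phase entry, E2f1 had the second smallest p of the list. It read 7.72, 7.997 and 8.29 in M1, M2 and M3, against 8.27, 8.48 and 8.36 in C1, C2 and C3. M3 lay just above C1, and the difference was -0.37 (SE 0.17, limma adjusted p = 0.344). The cyclin E genes Ccne2 and Ccne1, whose products activate Cdk2, stood at -0.11 and -0.019. Chaf1b, a subunit of the factor that places histones on new DNA, stood at -0.10.

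The double-null arrays did not agree among themselves. In M1, 29 of 39 replication genes lay below their Fz8-null mean, and in M2 24 did, but in M3 18 did and 21 lay above. The median of the list against the Fz8-null mean stood at -0.14, -0.12 and 0.015 for M1, M2 and M3, against 0.0036, 0.037 and -0.022 in C1, C2 and C3. Genes of similar level gave -0.12, -0.18 and -0.035 in M1, M2 and M3, so these genes too were nearest to the Fz8-null level in M3. Beside the replication medians of -0.14, -0.12 and 0.015, the mean level of the liver genes was 6.23, 8.71 and 9.01 in M1, M2 and M3. The part of liver transcripts in the replication values was not tested.

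**Figure D3:**
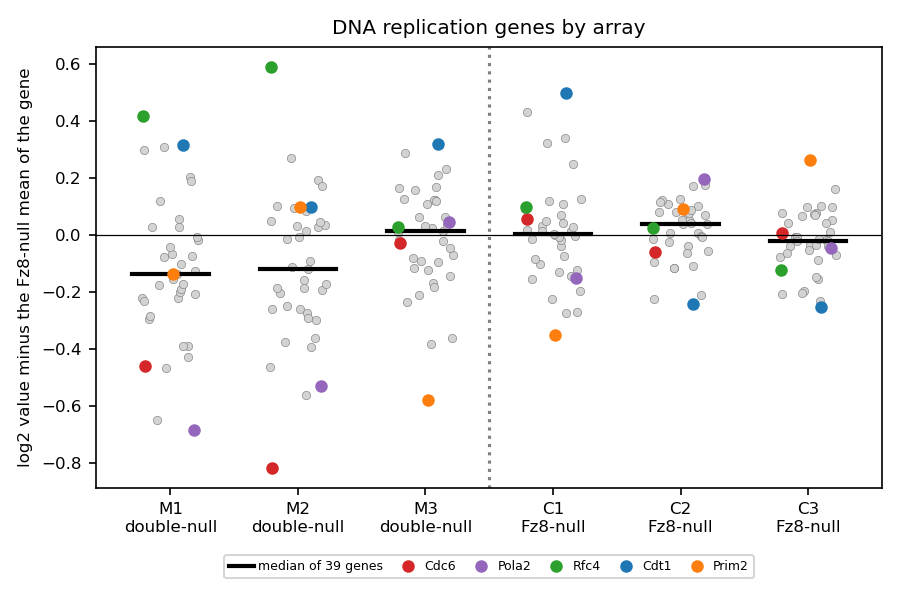
Each dot is a replication gene on an array, as its log2 value minus the mean of that gene over the 3 Fz8-null arrays (y axis), with the median of the 39 genes as a black bar and 5 genes in colour. The bars of M1, M2 and M3 are at -0.14, -0.12 and 0.015, and Cdc6 and Pola2 are low in M1 and M2 but near 0 in M3.

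A measure of RNA integrity separated M1, M2 and C1 from the other arrays. On the control probe sets for the 3′ and 5′ ends of Actb, a cytoskeletal gene, the 3′ minus 5′ signal for M1, M2 and M3 was 1.30, 1.08 and 0.57, against 1.00, 0.74 and 0.75 in C1, C2 and C3. For Gapdh, a glycolytic gene, it was 1.15, 1.04 and 0.88 in M1, M2 and M3, against 1.01, 0.80 and 0.79 in C1, C2 and C3. M1, M2 and C1 thus had the 3 largest values on both controls. With the mean of both as a covariate, an alternative chosen after the data were seen, 0 of 39 genes passed and the median difference of the list was -0.075. With that covariate Cdc6 stood at -0.32, Pola2 at -0.18 and Rfc4 at 0.21, nearer to 0 than without it. Gins3 at -0.27 and Prim2 at -0.26 were further from 0, and 4 of 39 genes changed sign. How much of a gene's difference went with RNA integrity was not tested.

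Probe sets of 1 gene often differed from each other. The 39 genes had 88 probe sets, of which 75 had a mean of at least 6. By limma's adjusted p over 45037 probe sets 0 of 88 passed, where 5 of all probe sets did. An unadjusted limma p under 0.05 was found for 6 of the 88. The share of all probe sets at that p was not counted, and over all genes on their brightest probe set it was 15.3%. These 6 went both ways: dim sets of Pola1 (mean 3.54) and Pole2 (mean 4.60) stood at 0.89 and 0.80, and the others were negative. Of 36 further probe sets with a mean of at least 6, belonging to 26 genes, 27 gave a lower difference than the brightest one of the same gene. The median difference was -0.20 on the further probe sets and -0.089 on the brightest ones of those genes. In M1 and M2 the median of the further probe sets lay at -0.31 and -0.30 against the Fz8-null mean, and in M3 at 0.019. The lowest value was that of the dimmest of 5 probe sets of Mcm3, which read 6.80, 6.90 and 7.95 in M1, M2 and M3, against 7.68, 8.41 and 8.26 in C1, C2 and C3. Its difference there was -0.90 (SE 0.35, limma adjusted p = 0.322), and on the other 4 probe sets of Mcm3 it was between -0.34 and -0.17. Rpa2 on its second probe set read 7.75, 7.78 and 8.97 in double-null kidneys, against 8.34, 9.36 and 9.17 in Fz8-null kidneys. Again M1, M2 and C1 were the 3 low arrays. Rrm1 on its second probe set had the same 3 low arrays, with 7.68, 7.36 and 8.52 in double-null kidneys, against 8.17, 8.66 and 8.55 in Fz8-null kidneys. Not every further probe set had this order. The third probe set of Mcm5, at -0.59, read 5.78, 5.65 and 6.45 in M1, M2 and M3, and C1 was its highest array, at 6.70. These sets were chosen after their values were seen, and how many sets had each order was not counted. Among the 26 genes with at least 2 probe sets of that brightness, all probe sets gave 1 sign in 16.

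**Figure D4:**
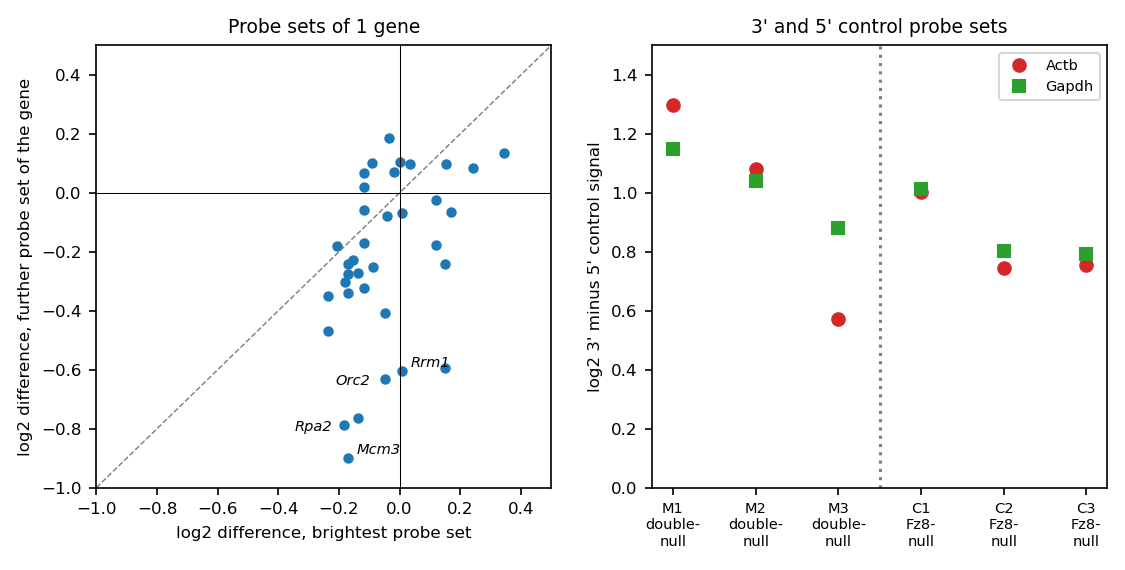
Left, each dot is a further probe set of a replication gene (mean log2 of at least 6), with its log2 difference on the y axis and that of the gene's brightest probe set on the x axis; 27 of 36 lie below the dashed line of equal values. Right, the 3′ minus 5′ control signal (log2, y axis) by array is highest in M1, M2 and C1 for Gapdh, and for Actb it is lowest in M3.

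No gene of the wider pathway passed either. The counts without overlap in this and the other lists stand beside 12.2% of all genes lower and 6.68% higher, and the medians beside -0.061 over all genes. Of 51 other replication genes measured, 0 passed, 6 lay lower and 1 higher without overlap, and the median was -0.052. The pair of smallest p were Mcmbp, a binding partner of the helicase, at -0.57 (SE 0.15, limma adjusted p = 0.314) and Pold3, a subunit of polymerase delta, at -0.75 (SE 0.20, limma adjusted p = 0.314). Mcmbp read 10.03, 9.64 and 9.75 in M1, M2 and M3, against 10.30, 10.34 and 10.47 in C1, C2 and C3, and Pold3 read 8.66, 8.73 and 8.97 in double-null kidneys, against 9.16, 9.80 and 9.64 in Fz8-null kidneys. Both were lower in all 3 double-null arrays, M3 included. Of 16 checkpoint and fork repair genes 0 passed, 1 lay lower and 0 higher without overlap, and the median was -0.17. Rad9a, of the clamp that senses stalled forks, stood at -0.51 and Atrip, the partner of the Atr kinase, at -0.49.

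Among 27 regulators of the step into S phase 0 passed. Without overlap 8 (29.6%) lay lower, against 12.2% of all genes and 16.9% of those near the replication genes in level, and 1 lay higher; the median was -0.21. Cdc25a, the phosphatase that activates Cdk2, read 9.07, 8.91 and 9.31 in M1, M2 and M3, against 9.59, 9.85 and 9.79 in C1, C2 and C3, at -0.64 (SE 0.15, limma adjusted p = 0.314). E2f7, a repressive E2F, read 8.95, 8.72 and 9.16 in double-null kidneys, against 9.36, 9.71 and 9.62 in Fz8-null kidneys, at -0.62 (SE 0.17, limma adjusted p = 0.314). Of 29 mitosis genes 0 passed, 4 lay lower and 0 higher without overlap, and the median was -0.068. Prc1, which bundles microtubules at the midzone, stood at -0.62 and Tpx2, a spindle assembly factor, at -0.38. M2 was the lowest array for the mitosis list, at -0.26 against the Fz8-null mean, where M1 was at -0.073 and M3 at -0.0093.

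Genes listed as markers of the ureteric tip and of nephron progenitors had negative differences throughout. How far each listed gene is particular to its cell type was not tested. Of 14 genes measured from the ureteric tip list, 12 lay lower without overlap, against 12.2% of all genes, with a median of -0.78. In this list 1 gene passed: Vsnl1, a calcium sensor of the tip, at -1.90 (SE 0.17, limma adjusted p = 0.0490). Of 14 nephron progenitor genes 9 lay lower without overlap and 0 passed, with a median of -0.50. The means of these lists were lower in M3 as well, at -0.60 for the tip and -0.43 for the progenitors, where the replication list stood at -0.013. No test of the difference between these lists was made.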

How the data were processed

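The authors deposited 1 table of log2 probe-set intensities from total RNA (100 ng) of whole kidneys, normalized with RMA per the submitters' processing notes (version not given in the sources used here). The values were used as deposited. Of 45101 probe sets, 64 controls were set aside. The platform annotation gave 34945 of the other 45037 a single gene, 932 several and 9160 none. Arrays carry no read depth, so their number limits precision.

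The groups were compared with limma 3.58.1 under R 4.3.3 (lmFit, eBayes without trend), two-sided, with Benjamini-Hochberg adjustment over all 18193 genes and a threshold of 0.05. The script was tested on simulated data. Alternatives covered normalization, filtering, eBayes settings, array weights, the replicate block, the probe set used, arrays left out, and a covariate of control signals added after the data were seen. The replication genes and the other lists were chosen with earlier results of these data known, so no list was tested: lists are described by counts and medians beside those of all genes. Every listed gene could be named. Per-array values were given for the 12 genes of smallest p and the 4 of largest p, and other lists were represented by genes past the threshold or the 2 of smallest p. Prim1, Pcna and single further probe sets were chosen after their values were seen. Same-numbered arrays deviated from their group means with correlations of 0.17, -0.14 and 0.090, so the numbers were not used as pairs.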

Additional observations from a re-analysis of the deposited data

How the results depend on the processing

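The covariate of control signals was added after seeing the data. The 39 genes gave 702 values under 18 alternatives, of which 14 passed the threshold, 12 of them with array weights and the others without M3 (Cdc6 and Pola2); none of these 14 had changed sign. The number passing was 12 with array weights, where 41.6% of all genes passed, and 0 to 2 when each array was left out in turn. It was 0 under every other alternative. The count lying lower without overlap was 1 with quantile normalization (11.4% of all genes), 3 on the second brightest probe set (11.2%), 22 without M2 and M3 together (42.0%), 11 without M1 and M2 together (26.0%), and 6 to 17 with each array left out (13.9% to 34.1%). The count lying higher was 4 when probe sets of a gene were averaged (7.11% of all genes), 4 on the second brightest (6.99%), 5 without M2 and M3 (27.3%), 10 without M1 and M2 (27.0%), and 2 to 7 with each array left out (8.32% to 19.2%). Fewer arrays make separation easier by construction. The median difference was 0.0074 with quantile normalization and 0.015 without M1 and M2; it was -0.12 to -0.066 with each array left out. The median against genes of similar level moved between -0.020 and 0.057. With the replicate block, 0 of 39 passed and the median was -0.10; 3 of all genes passed. Without a block the number of all genes was 5. Correlations of residuals did not favour the same number for every array. Signs of single genes were not stable: 11 of 39 differed from the reported sign on the second brightest probe set, 11 without M1 and M2 together, and 8 with quantile normalization, where none passed. The cause was not tested.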

Other observations

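Replication genes differed in both directions between Fz8-null array C1 and the other Fz8-null arrays. Cdt1 was 0.74 above the mean of C2 and C3 there, Mcm2 0.65, Ccne1 0.51, Mcm10 0.48 and Mcm5 0.37. These genes were chosen after their values were seen. Other genes were low in C1 by the same measure, with Prim2 at -0.53, Tk1 and Orc6 at -0.41 each and Rfc3 at -0.34, and 20 of 39 were above 0. On the second probe set of each of the 5 high genes, C1 exceeded the mean of C2 and C3 by 0.64 for Cdt1, 0.48 for Ccne1, 0.45 for Mcm10, 0.21 for Mcm2 and 0.13 for Mcm5.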
